A study of Mus musculus with 10 samples.

Results

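The 6 libraries of treated MC3T3-E1 cells were compared with 1 library of untreated cells, called B-4, to describe what the treated cells showed beyond the state of that culture. MC3T3-E1 is a preosteoblast line from newborn C57BL/6 mouse calvaria that can be driven to make and mineralize bone matrix, although the source field of the labels calls the cells bone marrow mesenchymal stem cells. The treated cells received β-ecdysterone, a plant steroid, at 100, 150 or 200 μM for 5 or 10 days, with 1 library at each dose and day. The labels call B-4 untreated and give it no time. The comparison used 7 of the 10 libraries of the series; the other 3, an untreated library called A-5 and libraries at 0 μM on day 5 and day 10, are given beside the results as further cultures without β-ecdysterone. All 10 came from cells of the third passage, and no label says that any 2 libraries came from separate cultures of one condition. A gene was a member when B-4 lay at least 2-fold below the lowest or at least 2-fold above the highest of the 6 treated libraries, on the scale of log2 CPM, which are read counts scaled to a common library size, with a prior count of 2. Of 29583 genes in the table, 14089 passed a filter on low levels and 1218 of these were members.

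Preosteoblasts first divide, then leave the cell cycle and secrete a matrix of collagens and adhesive proteins, which they mineralize through phosphatases such as alkaline phosphatase. Runx2 and Sp7 are the transcription factors at the head of this program, and BMP, Wnt, IGF and PTH signals act on it. Transcripts for mitosis and DNA synthesis report how much of a culture is dividing, and they are low in cells that have become confluent or have stopped cycling.

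B-4 was low in transcripts of dividing cells. The summed level of the 36 cell cycle genes was 366 CPM in B-4, between 1387 and 2797 CPM in the treated libraries, 3317 CPM in A-5, and 4991 and 5517 CPM at 0 μM on days 5 and 10. The osteoblast lineage markers Runx2 and Col1a1 were read at 193 and 3329 CPM in B-4, so transcripts of that lineage were present. The markers Sp7, Ibsp and Alpl were lower in B-4, at 10.35, 9.0 and 3.46 CPM. Bglap, the gene of osteocalcin, was low at 0.758 CPM in B-4 and 0.201 to 5.35 CPM in the treated libraries. Which of the 2 cell names in the labels applies was not tested. Library totals were 29789271 counts in B-4 and 27108562 to 58218009 in the treated libraries, so 3 counts were worth 0.0989 CPM in B-4.

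Treated cells were higher for 895 of the members, which is 6.35% of the genes tested, and lower for 323, which is 2.29%. The median distance between B-4 and the nearest treated library was 3.24-fold among the higher genes and 2.43-fold among the lower ones. A distance of at least 4-fold was found for 330 higher and 33 lower genes, and of at least 8-fold for 82 and 10. The higher genes held 707 Ensembl genes and 188 newly assembled loci, and the lower genes held 185 and 138, so loci without a gene name made up 21% and 42.7% of the 2 directions against 11.4% of all genes tested. B-4 has no replicate, and a count by range is therefore a description of this library.

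**Figure D1:**
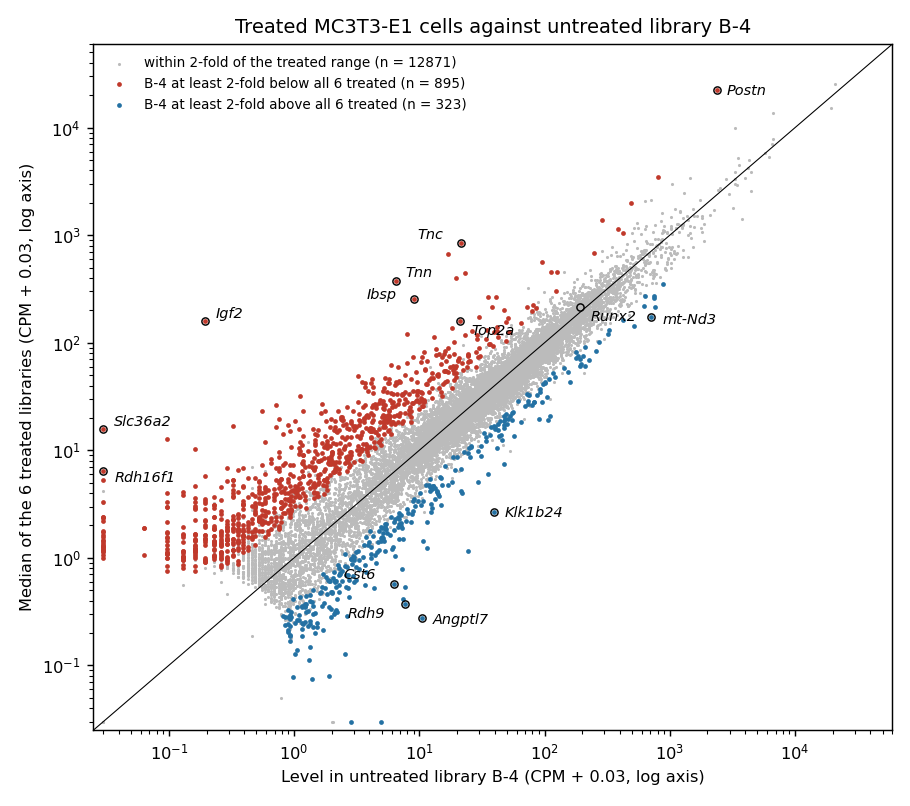
Level of each of the 14089 genes in B-4 (x axis) and the median of the 6 treated libraries (y axis), both in CPM plus 0.03 on log axes; the line marks equal levels. Red points are the 895 genes for which B-4 lay at least 2-fold below every treated library, blue points the 323 for which it lay at least 2-fold above, and Igf2, Tnn, Tnc and Ibsp stand farthest from the line among the labelled genes with over 100 CPM in the treated median.

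For a test with a fitted spread, the same 7 libraries were compared by edgeR's quasi-likelihood test. Called genes numbered 1256 higher in treated cells (8.91%) and 615 lower (4.37%) when a log2 fold change past 1 in size came with an adjusted p below 0.05. The spread in this fit came from the 3 doses of each day, and B-4 was assumed to vary as they did. Of the 895 and 323 members, 883 and 315 were called in their direction, which adds no independent support because the same libraries chose them, so fold changes of members are given below with their fitted SE and without a p-value. The values just at the limit show how the rule divides genes. In Nfrkb and Col2a1, B-4 lay 2.0-fold and 2.0-fold below the lowest treated library and both were counted, whereas Sox6 and Itga9, at 1.998-fold and 1.996-fold, were not. On the other side Mpc1 and Sft2d1, for which B-4 lay 2.009-fold and 2.012-fold above the highest treated library, were counted, and Fbxl2 and Cbr2 at 1.999-fold and 1.988-fold were not.

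Of the named genes that reached 5 CPM in B-4 or in the treated mean, a growth factor gene stood farthest from B-4, and 5 of the 12 with the largest distances, Tnn, Tnc, Npnt, Fbn2 and Nid1, encode extracellular matrix proteins. Igf2, the gene of insulin-like growth factor 2 (chr7:142650766-142666816, minus strand, GRCm38), was read at 0.165 CPM in B-4, which is 5 counts, and at 50.9, 158 and 310.5 CPM as the lowest, median and highest treated library. The ratio of the treated mean to B-4 was 1032, with a counting interval from 442 to 3178. Igf2 was also near 0 in A-5 and at 0 μM on day 10, at 0.0328 and 0.0314 CPM, and stood at 1.01 CPM at 0 μM on day 5, so none of the 4 cultures without β-ecdysterone overlapped the treated libraries.

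Tnn and Tnc, which encode the matrix glycoproteins tenascin N and tenascin C, stood 29-fold and 16.3-fold clear of B-4. Tnn was read at 6.53 CPM in B-4 and at 190.5, 376 and 791 CPM as the lowest, median and highest treated library. For Tnc the values were 21.4 CPM in B-4 and 350.4, 850.1 and 1432 CPM. The fitted log2 fold changes were 5.91 ± 0.48 (SE) and 5.23 ± 0.44. Npnt, the gene of nephronectin, an integrin ligand of bone and kidney, was 16.9 CPM in B-4 and 236, 669.9 and 862 CPM (log2 fold change 5.15 ± 0.57). These 3 genes were between 3.34 and 31.1 CPM in A-5 and the 0 μM libraries, below every treated library.

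Fbn2, the gene of the microfibril protein fibrillin 2, was the tightest of these genes among treated cells. It was read at 19.8 CPM in B-4 and between 354 and 412 CPM in the 6 treated libraries, with a log2 fold change of 4.3 ± 0.17. Here the other cultures differed: A-5 at 21.4 CPM was close to B-4, and the 0 μM libraries at 105 and 144 CPM lay between B-4 and the treated range.

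A further 5 of the 12 genes with the largest distances were at or near 1 CPM or lower in each culture without β-ecdysterone. Mrvi1, whose product takes part in nitric oxide signalling in smooth muscle, was read at 0.692 CPM in B-4 and 14.4, 26.5 and 40.2 CPM as the lowest, median and highest treated library. Tspoap1, which encodes a protein that binds the mitochondrial translocator protein, had 2 counts in B-4 and 6.09 to 15 CPM in treated cells, a ratio of 172 with a counting interval from 47.6 to 1420. The gene 1500015O10Rik, also known as Ecrg4, was at 0.527 CPM against 9.23 to 34.8 CPM. Slc36a2, the gene of an amino acid transporter, had 0 counts in B-4 and was at least 287-fold higher in the mean of treated cells against a floor of 3 counts in B-4, while its treated values ran from 0.97 to 71.7 CPM. Aox4, an aldehyde oxidase gene, also had 0 counts in B-4, was at least 62.5-fold higher in the treated mean against the same floor, and was read at 1.41 to 12.7 CPM in treated cells.

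The other 2 of the 12 did not separate the treated cells from the other cultures in this way. Rdh16f1, a retinol dehydrogenase family gene with near-identical neighbours whose reads may be divided among them, had 0 counts in B-4 against 4.74 to 7.36 CPM, but 1.6 to 2.79 CPM in the other 3 cultures, less than 2-fold below the treated range at the nearest. Nid1, the gene of the basement membrane protein nidogen 1, was low in B-4 and A-5, at 0.297 and 0.393 CPM, and was 15.5 and 35.8 CPM at 0 μM, within or above its treated range of 7.47 to 30.7 CPM. In treated cells Nid1 was 23.5 to 30.7 CPM in the 3 libraries of lowest total count and 7.47 to 10.2 CPM in the 3 of highest; the part of depth in this split was not tested.

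**Figure D2:**
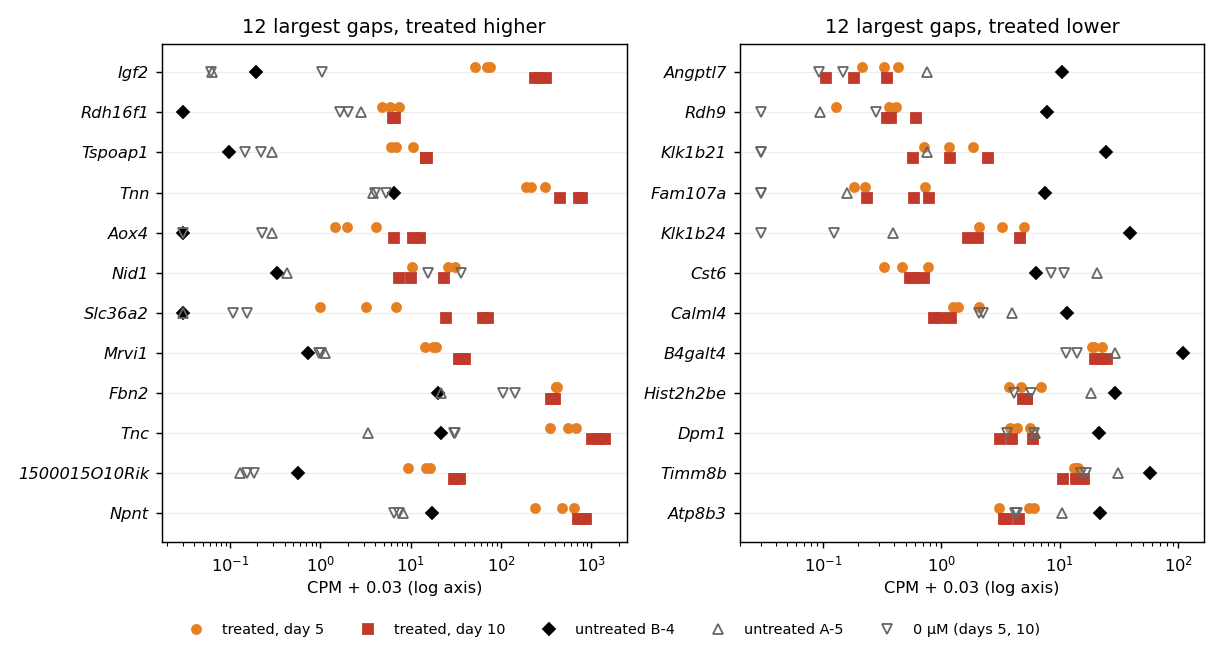
Level of the 12 genes with the largest distance from B-4 in each direction, in CPM plus 0.03 on a log axis, with 1 point for each library. Filled circles and squares are treated libraries of days 5 and 10, the black diamond is B-4, and open triangles are A-5 and the 0 μM libraries; Igf2, Tspoap1, Tnn, Mrvi1, Tnc and Npnt show all 4 libraries without β-ecdysterone far to the left, whereas for Angptl7 and Klk1b24 B-4 alone lies to the right.

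Genes of mitosis formed the group with the largest share of members. Of the 36 cell cycle genes, all of which passed the filter, 32 were at least 2-fold higher in every treated library than in B-4 (88.9%, against 6.35% over all genes tested), none was lower, and 34 were called higher by edgeR, with a median log2 fold change of 2.41 (median over all genes tested 0.001). Top2a, the gene of the topoisomerase that untangles DNA at mitosis, was read at 21.3 CPM in B-4 and at 142, 159.6 and 296 CPM as the lowest, median and highest treated library. Hmmr, which encodes a spindle-associated hyaluronan receptor, was at 5.57 CPM against 37, 42.1 and 76.1 CPM. Ccna2, the gene of cyclin A2, was at 8.9 CPM against 57.3, 74 and 115 CPM, and Kif11, the gene of a spindle motor, at 10.5 CPM against 65, 74 and 138 CPM.

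The treated cells were not high in these transcripts when set beside the other cultures without β-ecdysterone. Top2a was 298 CPM in A-5 and 544 and 569.9 CPM at 0 μM, above the highest treated library. With the 0 μM library of day 5 or day 10 in the place of B-4, 10 and 17 of the 36 cell cycle genes lay at least 2-fold above all 6 treated libraries and none lay below them. With A-5 in that place 1 lay above and none below. With A-5 added to B-4 as an untreated group of 2 libraries, the log2 fold change of Ccna2 was -0.06 and that of the replication gene Mcm10 was -0.08. Neither passed the test then (edgeR adjusted p = 0.966 and 0.948), so their difference depended on the untreated cultures taken.

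DNA synthesis genes showed the same order. Of 35 measured, 15 were at least 2-fold higher in all treated libraries than in B-4 (42.9%), 21 were called higher by edgeR and none lower. Cdc6, which loads the replicative helicase, was read at 0.824 CPM in B-4 and 6.32, 7.64 and 12.7 CPM in treated cells. Mcm10, a replication initiation factor, was at 1.81 CPM against 8.74, 11.5 and 20 CPM. Pole, the catalytic subunit of DNA polymerase epsilon, and Rrm2, a subunit of ribonucleotide reductase, stood 4.71-fold and 4.08-fold above B-4 in the nearest treated library. All 4 were higher still at 0 μM, where Cdc6 was 26.9 and 28.8 CPM. Among 17 measured genes of growth arrest only Btg1 was a member (5.88%, against 6.35% over all genes tested), at 50.6 CPM in B-4 and 131 to 212 CPM in treated cells. Btg1 at 0 μM on day 5 lay within that range. Cdkn1a, the gene of the cell cycle inhibitor p21, was 328 CPM in B-4, within its treated range of 261 to 371 CPM. Cdkn1a was chosen after its values were seen.

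The upstream sequences of the 3 cell cycle genes with the largest distances and an entry in RefSeq's promoter table are shown because many genes of this group share 2 known elements near their starts. The CHR element (TTTGAA, or TTCAAA on the other strand) and the CCAAT box (CCAAT, or ATTGG) are in capitals in the 250 bases before each start, on the strand of the gene, in GRCm38.p6. The windows are chr11:99024190-99024439 on the minus strand for Top2a, chr11:40733438-40733687 on the minus strand for Hmmr and chr19:37376132-37376381 on the plus strand for Kif11.
Top2a: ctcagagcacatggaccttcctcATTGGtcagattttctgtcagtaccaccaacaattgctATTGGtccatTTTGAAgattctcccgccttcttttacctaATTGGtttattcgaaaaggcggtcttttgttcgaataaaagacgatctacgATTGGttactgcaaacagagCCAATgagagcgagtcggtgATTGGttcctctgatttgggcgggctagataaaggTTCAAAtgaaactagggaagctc
Hmmr: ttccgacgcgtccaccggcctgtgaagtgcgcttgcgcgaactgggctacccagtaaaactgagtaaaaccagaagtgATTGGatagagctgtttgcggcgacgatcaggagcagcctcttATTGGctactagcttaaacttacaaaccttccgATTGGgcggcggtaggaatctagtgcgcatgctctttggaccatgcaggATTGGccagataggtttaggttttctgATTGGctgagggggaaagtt
Kif11: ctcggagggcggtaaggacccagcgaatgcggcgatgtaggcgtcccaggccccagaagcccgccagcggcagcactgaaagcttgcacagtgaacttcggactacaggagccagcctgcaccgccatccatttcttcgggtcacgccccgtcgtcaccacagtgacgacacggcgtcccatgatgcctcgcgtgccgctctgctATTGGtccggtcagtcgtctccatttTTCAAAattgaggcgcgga
Top2a held 2 matches of the CHR letters, the nearer beginning 23 bases before the start, and 6 of the CCAAT letters. Kif11 held 1 of each, beginning 19 and 45 bases before the start. Hmmr held 5 matches of CCAAT letters and none of CHR letters in this window.

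A promoter of this table was matched for 26 of the 32 cell cycle members, taking the first window by position for a gene with several. CCAAT letters were in 20 of these 26 (76.9%), in 34.2% of the 27025 promoters and in 37.1% of the 9734 promoters of genes that passed the filter. CHR letters were in 7 (26.9%), in 16.3% and in 10.6%. The 7 promoters with CHR letters also held CCAAT letters. The 2 spellings share the letters CAA (TTG on the other strand), and neither contains the other. These are letter matches in a fixed window, and no binding was measured.

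Some interferon response genes were also low in B-4. Of 30 measured, 12 were members in the direction of higher treated levels (40%), none was lower, and 14 were called by edgeR, with a median log2 fold change of 0.95. The summed level of the list did not set B-4 apart, at 2464 CPM against 2219 to 3127 CPM in treated cells and 1891 and 2103 CPM at 0 μM. Oas2, an antiviral oligoadenylate synthetase, was read at 5.21 CPM in B-4 and 27.2, 37.9 and 47.5 CPM as the lowest, median and highest treated library. Ifi44 and Gbp3, which are induced by interferons, were at 1.65 and 3.39 CPM in B-4 and at least 7.73 and 11 CPM in treated cells. Isg15, the gene of a ubiquitin-like modifier, was at 3.33 CPM against 10.5 to 16.1 CPM, but was 10.6 to 14.1 CPM in the other 3 cultures, which overlaps the treated range. The same was seen for Gbp3 with A-5 at 13.7 CPM. For Oas2, Ifi44, Gbp3 and Isg15 alike, B-4 was the lowest library of the series. With A-5 in the place of B-4, 0 of the 30 genes lay at least 2-fold below all 6 treated libraries. With the 0 μM library of day 5 or day 10 there, 1 and 0 did. In each case 2 lay at least 2-fold above them. The antigen presentation genes B2m and H2-K1 did not pass both limits, with log2 fold changes of -0.52 and 0.07. The chemokine genes Cxcl10 and Ccl5, also induced by interferons, had 6 counts each in B-4 and at least 1.01 and 0.715 CPM in treated cells, and were higher in the other 3 cultures than in any treated library. With A-5 added to B-4 their log2 fold changes were -0.27 and -0.42 (edgeR adjusted p = 0.814 and 0.722).

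**Figure D3:**
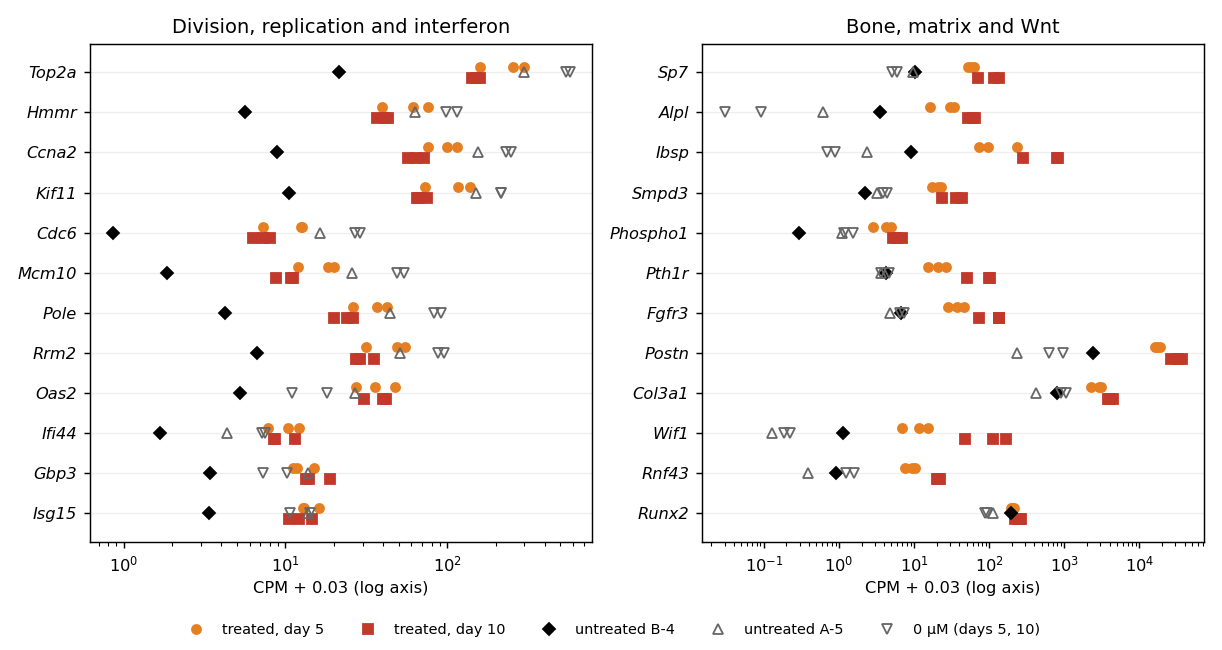
Level of 24 genes in each library in CPM plus 0.03 on a log axis, with treated libraries as filled circles (day 5) and squares (day 10), B-4 as a black diamond and the other 3 libraries without β-ecdysterone as open triangles. On the left, B-4 lies below every other library for the division, replication and interferon genes shown. On the right, all libraries without β-ecdysterone lie below the treated ones for genes such as Ibsp, Pth1r, Fgfr3 and Postn. B-4 is the highest of them for Ibsp and Postn. Runx2 in B-4 lies at the edge of the treated range.

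Some bone matrix and mineralization genes separated the treated cells from B-4, and most of these also from the other untreated cultures. Of 19 that passed the filter, 5 were members with higher treated levels (26.3%, against 6.35% over all genes tested). By edgeR 8 were called higher, 1 lower and 10 in neither direction, where 8.91% and 4.37% of all genes were called higher and lower. The median log2 fold change was 0.41. Ibsp, the gene of bone sialoprotein, which nucleates mineral, was read at 9.0 CPM in B-4 and 73.8, 257 and 814 CPM as the lowest, median and highest treated library (log2 fold change 5.03 ± 0.93). Alpl, the gene of tissue-nonspecific alkaline phosphatase, was at 3.46 CPM in B-4 and 16.3, 43.2 and 65.4 CPM in treated cells (log2 fold change 3.53 ± 0.41). Smpd3, a sphingomyelinase needed for mineralization, was at 2.21 CPM against 17.5 to 43.8 CPM, and Phospho1, a phosphatase of matrix vesicles, had 8 counts in B-4 and 2.78 to 6.9 CPM in treated cells. The fifth, Panx3, which encodes a channel of bone and cartilage cells, was at 0.461 CPM against 2.21 to 6.65 CPM.

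B-4 was not at the level of the other untreated cultures for all of these. Alpl was 0 counts at 0 μM on day 5, 0.0628 CPM at 0 μM on day 10 and 0.59 CPM in A-5, all below its level of 3.46 CPM in B-4, which was itself 4.64-fold below the lowest treated library. Ibsp was also higher in B-4 than in the other 3, which were at 0.662 to 2.36 CPM. Spp1, the gene of osteopontin, went the other way without passing the fold limit: it was 1891 CPM in B-4 and 807 to 1666 CPM in treated cells (log2 fold change -0.66 ± 0.20, edgeR adjusted p = 0.0362), with B-4 above all 6, and 1694 to 3189 CPM in the other 3 cultures. Col1a1, the gene of the main chain of type I collagen, was 3329 CPM in B-4 against 6066, 9963 and 11600 CPM and was called higher (log2 fold change 1.5 ± 0.30, edgeR adjusted p = 0.00617), but its distance of 1.82-fold kept it from being a member, and its treated range overlapped the 0 μM libraries at 8259 and 10290 CPM.

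Among transcription factors of the lineage the 2 leading genes behaved differently. Sp7, the gene of osterix, was read at 10.3 CPM in B-4 and 53, 66 and 135 CPM in treated cells (log2 fold change 2.92 ± 0.35), and at 4.99 to 9.67 CPM in the other 3 cultures. Runx2 was 193 CPM in B-4, at the edge of its treated range of 192 to 263 CPM, and the difference did not pass the test (log2 fold change 0.21 ± 0.13, edgeR adjusted p = 0.263). The other members of this list of 14 were Ebf1 at 2.54 CPM against 10.2 to 13.5 CPM and Msx2 at 0.758 CPM against 2.31 to 5.62 CPM, and each had a 0 μM library within its treated range. The share of members was 21.4%, against 6.35% over all genes tested. Pth1r, the receptor of parathyroid hormone, was 4.22 CPM in B-4 and 15.3 to 101 CPM in treated cells. Among 10 measured late osteoblast and osteocyte genes it was the only member (10%, against 6.35% over all genes tested).

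The matrix beyond bone-specific genes held 9 members with higher treated levels among 29 measured proteoglycans and matricellular proteins (31.0%) and 1 with lower levels, Eln; edgeR called 13 and 2. Postn, the gene of periostin, was the most abundant member, with 2391 CPM in B-4 and 15940, 22580 and 36450 CPM as the lowest, median and highest treated library (log2 fold change 3.29 ± 0.26). It was the top transcript of the treated library at 100 μM on day 10, with 3.05% of its counts. The other 3 cultures lay below B-4 for Postn. The small proteoglycan genes Dcn and Lum were members at 18.9 and 4.25 CPM in B-4 and at least 55.9 and 12.9 CPM in treated cells, whereas Tgfbi, a member at 1.45 CPM in B-4 and 3.28 to 6.54 CPM, was 4.33 to 10.4 CPM in the other 3 cultures. Eln, the gene of elastin, was at 0.956 CPM in B-4, which is 29 counts, and at 0 to 0.252 CPM in treated cells.

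Collagen genes held a smaller share of members than the proteoglycans and matricellular proteins. With all 6 treated libraries, 3 of the 27 were members (11.1%) and 10 were called higher by edgeR, with none lower. Col3a1 was read at 801 CPM in B-4 and 2275 to 4467 CPM in treated cells, and Col6a3, a chain of type VI collagen, at 486 against 1574 to 2886 CPM. Both were below the treated range in all 4 cultures without β-ecdysterone. Col2a1, a cartilage collagen, was 11.3 CPM in B-4 and 22.7 to 93.2 CPM in treated cells, and its 0 μM values of 49 and 66 CPM fell within that range. Of collagen-processing genes, Adamts14 and Pcolce2 were members among 24 measured (8.33%, against 6.35% over all genes tested). Pcolce2 was 4.98 CPM in B-4 and at least 13.5 CPM in treated cells.

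Matrix proteases and their inhibitors held 7 members, each with higher treated levels, among 25 measured (28.0%); edgeR called 10 higher and none lower. Adamts1, a protease that cleaves proteoglycans, was 289 CPM in B-4 and 1087, 1376 and 1554 CPM in treated cells, and 80.4 to 97.4 CPM in the other 3 cultures. Timp4, a protease inhibitor, had 5 counts in B-4 and 1.91 to 6.37 CPM in treated cells. Mmp19 and the urokinase gene Plau were at 29 and 4.09 CPM in B-4 and at least 80.1 and 10.7 CPM in treated cells, with Plau at 21.2 and 26.3 CPM at 0 μM, above its treated range.

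Contractile genes were members in 5 of 20 cases (25%), with 6 called higher by edgeR and none lower. Actg2, an actin of smooth muscle, was 5.7 CPM in B-4 and 35.2, 42 and 64.8 CPM in treated cells, and 4.23 to 6.97 CPM in the other 3 cultures. Tagln and Myl9, which encode a calponin-like protein and a myosin light chain, were at 7.22 and 41.7 CPM in B-4 and at least 24 and 129.6 CPM in treated cells. At 0 μM Tagln was 32.8 and 37.9 CPM, within and just above its treated range, and Myl9 was 130.1 and 168 CPM, within its treated range. Des, the gene of desmin, was 0.857 CPM against 3.38 to 7.69 CPM. Acta2, the gene of smooth muscle alpha-actin, was 387 CPM against 903 to 1894 CPM. At 0 μM Acta2 was 861 CPM on day 5, just below its treated range, and 1362 CPM on day 10, within it.

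In the Wnt pathway the secreted antagonists and feedback targets carried the difference. Of 16 measured, 7 were members with higher treated levels (43.8%), 1 with lower levels, and 9 and 1 were called by edgeR, with a median log2 fold change of 1.75. Wif1, a secreted Wnt inhibitor, was 1.09 CPM in B-4, 6.92 to 15.5 CPM in the treated libraries of day 5 and 48.2 to 166 CPM in those of day 10. Dkk2, another secreted inhibitor, had 5 counts in B-4 and 2.74 to 9.18 CPM in treated cells. Rnf43, which removes Wnt receptors from the cell surface and is itself a Wnt target, was 0.89 CPM against 7.66 to 22.4 CPM (log2 fold change 3.96 ± 0.28). Tnfrsf19, a receptor of the TNF family, was 7.94 CPM against 32.8, 120.3 and 223 CPM, and at most 0.688 CPM in the other 3 cultures. Notum, a Wnt-inactivating enzyme, was the gene that was lower, at 2.17 CPM in B-4 and 0.133 to 0.854 CPM in treated cells.

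Ligands and receptors of the pathway moved in both directions. Of 25 measured, 3 were members with higher treated levels (12%) and 2 with lower levels (8%, against 2.29% over all genes tested). Wnt4 was 0.791 CPM in B-4 and 4.42 to 13.1 CPM in treated cells, and Wnt6 was 3.06 against 12.3 to 21.4 CPM. Wnt11, the third ligand, had 14 counts in B-4 and 1.15 to 1.92 CPM in treated cells. The receptor gene Fzd4 was higher in B-4, at 31.1 CPM against 10.2 to 14.3 CPM, and Lgr6, a receptor of R-spondins, was 0.989 CPM against 0.097 to 0.435 CPM. Fzd4 was 12.8 CPM in A-5, within its treated range, and 6.74 and 5.81 CPM at 0 μM, below it. Lgr6 was 0.164 CPM in A-5 and 0.701 and 0.377 CPM at 0 μM on days 5 and 10.

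BMP signalling through Smads to Runx2 and Sp7 is the pathway that the study follows. Bmp2 had 0 counts in B-4 and in all 6 treated libraries and did not pass the filter. Of 12 ligands, receptors and Smads measured, 1 was a member (8.33%, against 6.35% over all genes tested). This was Bmp4 at 0.956 CPM in B-4 and 4.55 to 7.86 CPM in treated cells, with 5.08 and 5.71 CPM at 0 μM. Smad1 was 15.2 CPM in B-4 and 20.4 to 25.6 CPM in treated cells (log2 fold change 0.56 ± 0.16), and Smad5 was 43.8 CPM against 44.6 to 58.5 CPM (log2 fold change 0.29 ± 0.14); neither passed the fold limit. Antagonists and targets held 4 members of 19 (21.1%), each with higher treated levels. Among them Id3, a direct BMP target, was 7.88 CPM in B-4 and ran from 26.6 to 104 CPM in treated cells, with 40.2 and 35.9 CPM at 0 μM within that range, and the secreted regulator Bmper was 26.4 CPM against 78.9 to 171 CPM. Fstl1 and Tmem100 were at 247 and 4.45 CPM in B-4 and at least 564 and 9.03 CPM in treated cells.

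Growth factor signalling beyond Igf2 held 5 more members with higher treated levels among 23 measured and 1 with lower levels. With Igf2 the shares were 26.1% and 4.35%, against 6.35% and 2.29% over all genes tested. Fgfr3, a receptor of fibroblast growth factors, was 6.76 CPM in B-4, 28.2 to 46 CPM in treated cells of day 5 and 72.3 to 136 CPM in those of day 10. Igfbp5, which binds insulin-like growth factors, was 95.5 CPM against 286, 566 and 734 CPM. Igfbp7 and Fgfr2 stood 2.81-fold and 2.05-fold above B-4 in the nearest treated library. Igfbp6, which prefers IGF2 as its ligand, went the other way, at 122 CPM in B-4 and 29.1 to 55.7 CPM in treated cells (log2 fold change -1.47 ± 0.14). In the Notch pathway Hes1, a target gene, had 3 counts in B-4 and a treated to B-4 ratio of 17.0. The counting interval of that ratio ran from 5.83 to 82.6, and Hes1 at 0 μM on day 10 lay within its treated range. The receptor gene Notch3 was 6.03 CPM against 15.7 to 23 CPM. Cyp26b1, the enzyme that degrades retinoic acid, was 23.1 CPM in B-4 and 202, 441 and 823 CPM in treated cells. Of 9 measured genes of retinol metabolism it was the only member (11.1%, against 6.35% over all genes tested).

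Nuclear receptor genes held 4 members of 24, all with higher treated levels (16.7%, against 6.35% over all genes tested). With A-5 or the 0 μM library of day 5 or day 10 in the place of B-4, 2, 1 and 0 of the 24 lay at least 2-fold below all 6 treated libraries. In the same order 0, 0 and 1 lay at least 2-fold above them. For 0 of the 24 did all 4 cultures without β-ecdysterone lie at least 2-fold below every treated library. Esr1, the gene of estrogen receptor alpha, was 5.73 CPM in B-4 and 16.4 to 22.4 CPM in treated cells, and Nr1h4, the bile acid receptor FXR, was 0.89 CPM against 4.44 to 13.9 CPM. Nr4a1 and Nr4a2, orphan receptors that respond early to stimuli, were at 6.03 and 0.824 CPM in B-4 and at least 20.2 and 2.48 CPM in treated cells. Nr4a1 was 31 CPM in A-5, within its treated range, and Nr4a2 lay within its treated range in both 0 μM libraries. Of 20 immediate early genes, Nr4a1 and Egr3 were members (10%, against 6.35% over all genes tested). By edgeR 7 were called higher, where 8.91% of all genes tested were. Egr3 was 1.75 CPM in B-4 and 4.48 to 11.1 CPM in treated cells, but 20.5 to 23.9 CPM in the other 3 cultures. With A-5 added to B-4 its log2 fold change was -0.67 (edgeR adjusted p = 0.511). In the complement list 2 of 11 were members, C4b and Pros1 (18.2%, against 6.35% over all genes tested). C4b was 5.7 CPM in B-4 against 32 to 87.5 CPM.

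**Figure D4:**
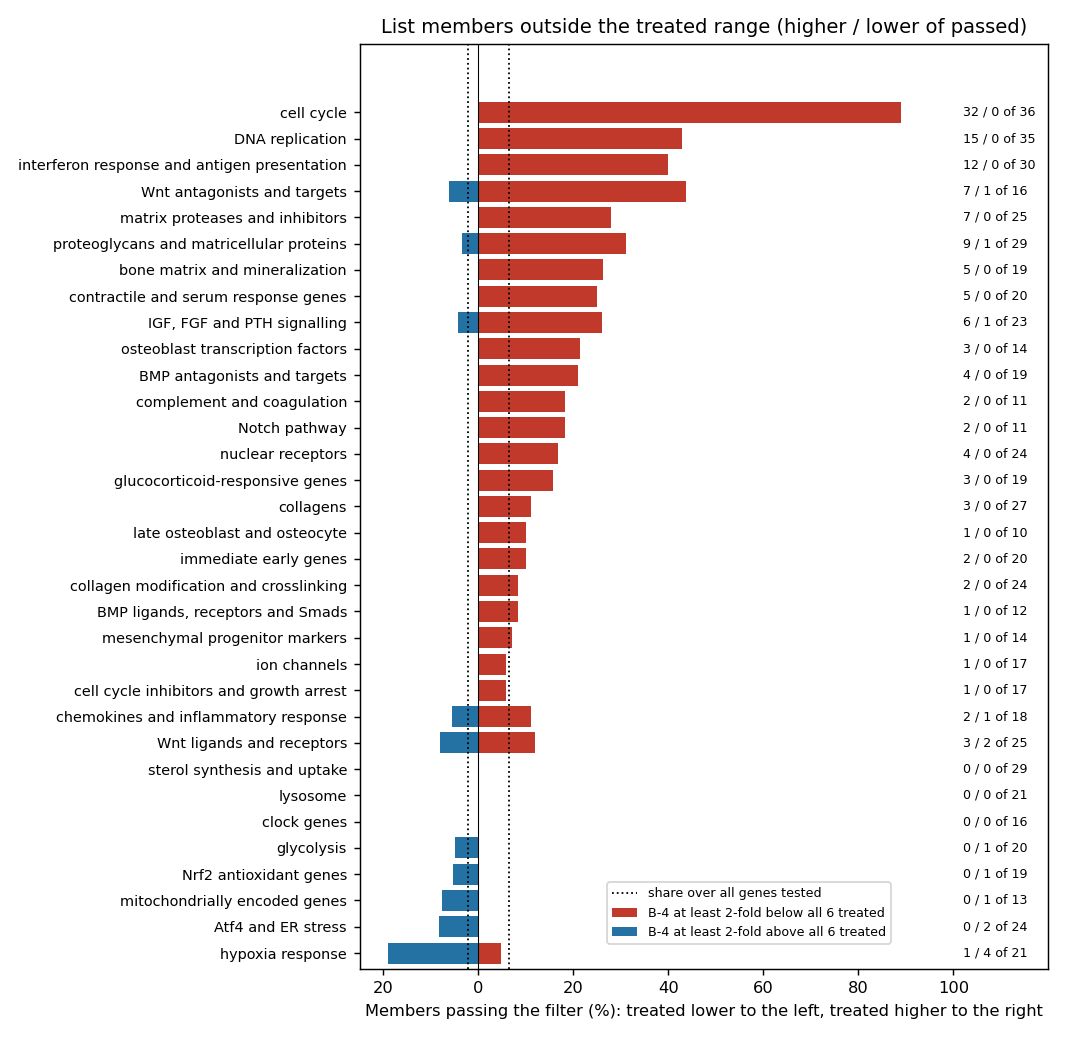
Share of each list's genes passing the filter for which B-4 lay at least 2-fold below (red, to the right) or above (blue, to the left) all 6 treated libraries, for lists with at least 10 genes passing, with the counts at the right. Dotted lines mark the shares over all genes tested, 6.35% and 2.29%; cell cycle stands farthest to the right with 32 of 36, and hypoxia response farthest to the left with 4 of 21.

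Genes that respond to glucocorticoids show what B-4 already shared with the treated cells. Their summed level over 19 measured genes was 6377 CPM in B-4 and 3937 to 6042 CPM in treated cells, against 1284 to 1395 CPM in the other 3 cultures. Fkbp5 and Tsc22d3, which glucocorticoids induce and which were picked here after their values were seen, were 948 and 1264 CPM in B-4, 471 to 640.5 and 1115 to 1386 CPM in treated cells, and at most 89.4 and 112 CPM elsewhere. Actn3, a muscle actinin and the marker gene of its list at the highest level, was 212 CPM in B-4 and 182 to 338 CPM in treated cells, against 5.43 to 8.06 CPM in the other 3. The members among the 19 were 3 genes (15.8%, against 6.35% over all genes tested): Klf15, Hif3a and Zbtb16. Hif3a was 0 counts in A-5 and both 0 μM libraries, 2.34 CPM in B-4 and 13.5, 19.5 and 27.3 CPM in treated cells (log2 fold change 3.02 ± 0.22). Klf15 had 5 counts in B-4 and 1.34 to 3.18 CPM in treated cells, and Zbtb16 was 2.54 CPM against 5.42 to 11.7 CPM.

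Sterol synthesis likewise did not set the treated cells apart from B-4. None of 29 measured genes was a member or called by edgeR in either direction, and the median log2 fold change was 0.01. Their summed level was 1593 CPM in B-4 and 1132 to 1856 CPM in treated cells, against 3450 to 4246 CPM in the other 3 cultures. Clock genes (16 measured) and lysosome genes (21 measured) held no member. Ion channels and mesenchymal progenitor markers held 1 each of 17 and 14 measured (5.88% and 7.14%, against 6.35% over all genes tested).

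The comparison was also made with all 4 libraries without β-ecdysterone held to the same rule. In 280 genes (1.99%) all 4 lay at least 2-fold below every treated library, and in 18 (0.128%) all 4 lay at least 2-fold above. Igf2, Tnn, Tspoap1, 1500015O10Rik, Npnt, Dkk2, Mrvi1, Tnc and Cyp26b1 were among the 15 named genes with the largest distances. The nearest of the 4 lay 47.9-fold below the lowest treated library for Igf2 and 8.73-fold for Cyp26b1. By list, 5 of the 9 matricellular members, 4 of the 5 bone matrix members and 5 of the 7 members among Wnt antagonists and targets were in this set, and none of the 32 cell cycle, 15 DNA replication or 12 interferon members. In this set B-4 was the highest of the 4 in 136 of 280 genes (48.6%), against 41.1% of all genes tested.

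Lower levels in treated cells were led by genes at a high level in B-4 alone: for 11 of the 12 genes with the largest distances B-4 was the highest of all 10 libraries. Angptl7, a secreted angiopoietin-like protein, was 10.4 CPM in B-4 and 0.0756 to 0.398 CPM in treated cells, and at most 0.721 CPM in the other 3 cultures. Klk1b24 and Klk1b21, tissue kallikrein genes of a family of near-identical copies whose reads may be divided among them, were 39.5 and 24.3 CPM in B-4 and at most 4.92 and 2.46 CPM in treated cells. Rdh9, a retinol dehydrogenase gene with close neighbours including Rdh16f1, was 7.71 CPM against 0.0995 to 0.586 CPM. Fam107a, a stress-induced actin-binding protein gene, was 7.42 CPM against 0.152 to 0.755 CPM. B4galt4, a galactosyltransferase gene, was the most abundant of the 12 at 110.3 CPM in B-4 and 18.5 to 24.9 CPM in treated cells (log2 fold change -2.37 ± 0.13). Over the 323 genes B-4 was the highest of the 4 libraries without β-ecdysterone in 282 (87.3%, against 41.1% of all genes tested). The rule for members favours this order because it asks for a high B-4. Likewise B-4 was the lowest of the 4 in 534 of the 895 higher genes (59.7%, against 35.4% of all genes tested).

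Cst6 was the exception among these 12. This gene of a secreted cysteine protease inhibitor was 6.23 CPM in B-4, 20.4 CPM in A-5 and 10.8 and 8.41 CPM at 0 μM, and 0.298 to 0.742 CPM in treated cells, so all 4 cultures without β-ecdysterone were above the treated range. The other 5 of the 12, the calmodulin-like gene Calml4, the histone gene Hist2h2be, the mannosyltransferase subunit gene Dpm1, the mitochondrial import gene Timm8b and the phospholipid flippase gene Atp8b3, were between 11.4 and 57.4 CPM in B-4 and at most 16 CPM in treated cells.

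Hypoxia response genes were the list with the largest share of lower members among those with at least 10 genes measured. Of 21, 4 were members with lower treated levels (19.0%, against 2.29% over all genes tested) and 1, Hif3a, with higher levels; edgeR called 6 lower and 2 higher. Car9, a carbonic anhydrase induced by low oxygen, was 14.3 CPM in B-4 and 2.82, 3.75 and 6.09 CPM in treated cells, and 39.8 to 68.9 CPM in the other 3 cultures. Bnip3 and Higd1a, which encode mitochondrial proteins induced by low oxygen, were 101 and 25.8 CPM in B-4 and at most 49.9 and 12.1 CPM in treated cells. Ankrd37 had 34 counts in B-4 and was at most 0.238 CPM in treated cells. Vegfa, Slc2a1 and Pdk1, targets of the same response, did not pass both limits, with log2 fold changes of 0.09, -0.41 and -0.54.

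Other stress and metabolic lists held 1 or 2 members with lower treated levels, where the share over all genes tested was 2.29%. These were 2 of 24 stress response genes (8.33%), 1 of 19 antioxidant genes (5.26%) and 1 of 20 glycolysis genes (5%). Of 18 chemokine and inflammatory genes 1 was lower (5.56%) and 2 were members with higher treated levels. Atf5 and Trib3, targets of the integrated stress response, were 202 and 47 CPM in B-4 and at most 92.2 and 22.5 CPM in treated cells. With A-5 or either 0 μM library in the place of B-4, 0 of the 24 stress response genes lay at least 2-fold above all 6 treated libraries. In each case 1 lay at least 2-fold below them. Gsta4, a glutathione transferase gene, was 8.57 CPM against 1.15 to 2.75 CPM, and the chemokine gene Ccl7 was 4.09 CPM against 0.407 to 1.62 CPM. Gapdh, the gene of a glycolytic enzyme with many near-identical copies in the genome that can take its reads, was 36.4 CPM against 12.4 to 17.3 CPM and is uncertain for that reason.

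Transcript length moved with the lower genes. The longest annotated transcript had a median of 1928 nucleotides among 185 lower Ensembl genes, 3834 among 707 higher ones and 3419.5 among the rest, and transcripts under 1000 nucleotides made up 25.4%, 1.13% and 3.86% of the 3 sets. The median log2 fold change was -0.67 over 174 genes of up to 724 nucleotides and 0.17 over 1843 genes of 5793 to 11585 nucleotides. Among nuclear genes of the respiratory chain and ATP synthase, grouped after their values were seen, 10 of 92 were members with lower treated levels and none with higher, and the median log2 fold change was -0.47 with a median length of 1170.5 nucleotides. Of 80 cytosolic ribosomal protein genes, whose many copies can divide reads, 6 were lower members and the median was -0.52. Rpl31 was 758 CPM in B-4 and 175 to 250.1 CPM in treated cells, and the mitochondrial transcript mt-Nd3 was 713 CPM against 135 to 238 CPM, while the 12 other mitochondrially encoded genes were not members. With the trend over length and GC content removed from Ensembl genes, 740 genes were higher and 125 lower; the part of length in single genes was not tested.

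**Figure D5:**
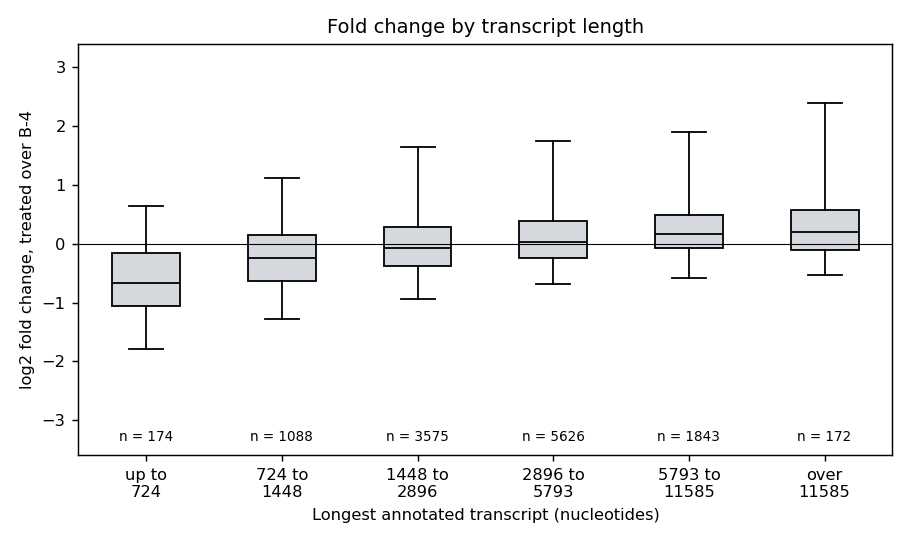
Log2 fold change of treated cells over B-4 (y axis) for Ensembl genes binned by the length of their longest annotated transcript (x axis); boxes span the quartiles, lines in them mark medians and whiskers reach the 5th and 95th percentiles. Medians rise from -0.67 in the shortest bin to 0.20 in the longest.

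Most markers of other cell types did not pass the filter on low levels, and 4 of them were members: Vwf, Des, Sox5 and Col2a1. Of 15 adipocyte markers 4 passed the filter, with a summed level of 7.68 CPM in B-4 and 5.93 to 8.26 CPM in treated cells. Adipoq had 2 counts in B-4 and at most 6 in a treated library, and Lep, the gene of leptin, had 0 counts in B-4 and 19 to 41 in treated libraries. Of 15 macrophage and blood cell markers 3 passed, at 28.8 CPM in B-4 and 34.9 to 67.4 CPM in treated cells, most of it Lyz2, and Ptprc and Adgre1 had 0 counts in B-4 and at most 12 and 13 in a treated library. Endothelial markers (3 of 12 passed) summed to 3.79 CPM in B-4 and 4.84 to 7.73 CPM in treated cells, with Vwf at 1.38 CPM against 3.31 to 5.88 CPM, and Cdh5 had 0 counts in B-4 and 15 to 46 in treated libraries. Of the neural markers, Sox10 had 0 counts in B-4 and at most 4 in a treated library, and Rbfox3 had 0 counts in B-4 and at most 22. Skeletal muscle markers (5 of 15 passed) summed to 222 CPM in B-4 and 200 to 346 CPM, nearly all of it Actn3, with Myod1 at 0 counts in B-4 and at most 2 in a treated library. Chondrocyte markers (6 of 14 passed) summed to 97.9 CPM in B-4 and 114 to 203 CPM. Sox9, the highest of them in B-4 at 65.5 CPM, was 57.9 to 87.3 CPM in treated cells and did not pass the test, and Sox5 was 4.05 CPM against 10.2 to 15.9 CPM. The part of other cells in the results was not tested, and in bulk RNA fewer cells of a kind and less transcript per cell cannot be told apart.

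Within the treated cells more genes differed between the 2 days than along the 3 doses. By the same edgeR fit, 131 genes were higher on day 10 than on day 5 (0.93%) and 21 were lower (0.149%). Of the 895 higher members, 48 were higher and 3 lower on day 10, and of the 323 lower members 0 and 1. The counts by day rested on the libraries at 200 μM: without that of day 5 they were 5 higher and 0 lower, and without that of day 10 they were 21 and 2. Among the named members that passed the test of day, Slc36a2 and Wif1 differed most, with log2 fold changes of 3.78 and 3.24 from day 5 to day 10 and edgeR adjusted p-values of 0.0168 and 0.0137. Ibsp, Igf2 and Pth1r followed at 2.23, 2.06 and 2.0. None of the cell cycle genes passed both limits for day; Top2a was 160.1 to 296 CPM on day 5 and 142 to 159 CPM on day 10. For the dose from 100 to 200 μM with day as a covariate, edgeR called 1 gene, Gm44503, which was at 0 in the 4 libraries at 100 and 150 μM and 6.30 and 6.71 CPM at 200 μM, and it was also present at 0 μM. It is no member. No other gene showed a trend at an adjusted p under 0.05 over these 6 libraries by edgeR, 321 genes had an unadjusted p under 0.05, and DESeq2 called 1 gene in each direction.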

How the data were processed

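RNA-seq was done on MC3T3-E1 cells with 1 library for each dose and day of β-ecdysterone. The labels' protocol gives n = 3, but no library of a condition is repeated here, so the 3 doses of a day stood as replicates, and p-values measure only the spread between these libraries, which may be technical. The authors deposited 1 table with whole-number read counts and FPKM (fragments scaled to transcript length and library size) per gene and library. Their processing notes name HISAT2 2.0.4 and GATK 3.2-2; the genome build, annotation and counting tool are not given in the sources used here. Columns holding the authors' own comparisons and pathway terms were not used. Of 29583 rows, 7547 carry no gene name, being loci assembled by the authors. Positions were matched by Ensembl ID to GENCODE M21 (GRCm38) for 22022 of 22036 genes. Members, gene lists and tests were chosen with earlier results of these data known.

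Counts were scaled by TMM over 10 libraries with edgeR 4.0.16 in R 4.3.3. Genes were kept when the mean of the treated mean and B-4 was at least 0.5 CPM. Distances were taken on log2 CPM with a prior count of 2. The quasi-likelihood test (glmQLFit, glmQLFTest) was fitted to treated day 5, treated day 10 and B-4, and the mean of both days was compared with B-4 with calls made past 1 on the log2 scale at a Benjamini-Hochberg adjusted p below 0.05. It left 4 residual degrees of freedom and a common biological coefficient of variation of 0.152. The same fit compared the days, and a fit of day plus dose tested the trend with dose. Alternatives used DESeq2 1.42.0, limma 3.58.1 on log2(FPKM + 1), other scalings, filters, prior counts and fold limits, and each library left out. Scripts were tested on simulated data.

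The genes named were, in each direction, the 12 with the largest distance and a mean of at least 5 CPM, up to 4 members of each list, 8 genes that the study names, the genes at the 2-fold limit, and the leading marker of each other cell type; others are said in the text to have been chosen after their values were seen or are named within a list. Promoters came from RefSeq's table for GRCm38.p6. Counting intervals are exact 95% Poisson intervals of the B-4 count; they and the floor of 3 counts per library cover counting error only. Antisense and overlapping genes cannot be told apart, as the counting is not stated to use strand. The summed level of the neural markers is not reported here.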

Additional observations from a re-analysis of the deposited data

Results flagged for a closer look

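Treated cells of day 10 differed from those of day 5 in 23 of the 115 named genes examined, by edgeR's quasi-likelihood test at an adjusted p under 0.05, a limit that 446 of all genes tested (3.17%) passed. With the 2-fold limit added, the calls over all genes fell from 131 higher and 21 lower to 5 and 0 without the library at 200 μM on day 5. All values here are log2 fold changes of day 10 over day 5. The genes higher on day 10 included the leading members of the comparison with B-4, with Slc36a2 at 3.78, Wif1 at 3.24, Igf2 at 2.06, Aox4 at 1.96, Tnn at 1.47, 1500015O10Rik at 1.26, Tnc at 1.22, Mrvi1 at 1.14 and Tspoap1 at 0.92. Bone and lineage genes were Ibsp at 2.23, Pth1r at 2.0, Alpl at 1.18, Sp7 at 0.91 and Spp1 at 0.72. Signalling genes were Fgfr3 at 1.63, Tnfrsf19 at 1.51, Rnf43 at 1.21 and Igfbp6 at 0.67, and matrix and other genes were Timp4 at 1.13, Postn at 0.90, Hif3a at 0.74 and Pcolce2 at 0.70. Trib3 was lower on day 10, at -1.02. Igfbp6 and Spp1 were lower in treated cells than in B-4 and nearer to B-4 on day 10 than on day 5.

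A single treated library stood apart in 4 genes by Dixon's ratio of its gap to the range of the 6 libraries. The library at 100 μM on day 5 was lowest for Higd1a (7.22 CPM, ratio 0.717), Smad5 (44.6 CPM, ratio 0.698) and Tmem100 (9.03 CPM, ratio 0.681). The library at 200 μM on day 10 was highest for Fzd4 (14.3 CPM, ratio 0.644). Chance flags about 1 in 20 genes, and 4 of 115 is below that share.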

How the results depend on the processing

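The counts of genes outside the treated range, 895 higher and 323 lower, moved with the limits used. Under edgeR's filter 1418 genes were higher, and with no filter 1625 were higher and 682 lower. On log2(FPKM + 1) the counts were 267 and 127, at 4-fold 330 and 33, and for any distance 4464 and 4541. With Ensembl genes alone 188 were lower, with day 5 libraries alone 496, with the 3 treated libraries of lowest total count alone 489, and with the trend over length and GC content removed 125. With all 4 libraries without β-ecdysterone together the counts were 280 and 18. The calls by edgeR, 1256 and 615, became 2193 and 2058 with no fold limit, 515 and 106 with a test against 2-fold, and 526 and 305 with limma on log2(FPKM + 1); 396 were lower among Ensembl genes alone and 261 with the length and GC trend removed. Leaving out each treated library gave 913 to 958 higher and 342 to 352 lower by range, 1137 to 1302 and 554 to 637 by edgeR, 5 to 169 and 0 to 35 for day, and 0 to 1 and 0 to 1 for dose. DESeq2 called 41 genes lower on day 10 and 1 lower with dose, and without day in the fit 0 rose with dose. Fewer genes tested, or fewer libraries, set some of these differences by construction; the cause of the others was not tested. Alternatives on depth, length, dose as a block, the other untreated libraries in the range count and all 4 together were chosen after seeing the data.

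Of 124 named genes, 54 were on the same side of both limits in every alternative run. With B-4 and A-5 together 5 changed sign, with log2 fold changes of -0.0835 for Mcm10, -0.0598 for Ccna2, -0.67 for Egr3, -0.27 for Cxcl10 and -0.42 for Ccl5. None of the 5 passed the test there, with edgeR adjusted p-values from 0.511 to 0.966. No paired analysis of treated cells against B-4 was possible because B-4 is 1 library. Between the days, with dose as a replicate block, 168 genes were higher and 32 lower on day 10, against 131 and 21 without the block; no label says that cultures of a dose were shared between days. B-4 had 29789271 counts, so genes with 0 counts there have only a bound, against a floor of 0.0989 CPM.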
